A study of Mus musculus with 4 samples.

Results

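Binding of the transcription factor NFIC was examined at 10 genes that set the activity of the kinase mTOR in mouse pancreas: *Ddit4*, the 3 sestrins *Sesn1*, *Sesn2* and *Sesn3*, the TSC subunits *Tsc1* and *Tsc2*, the GTPase *Rheb*, and *Mtor* with its partners *Rptor* and *Rictor*. The members were taken by name, and every peak whose gene name in the deposited annotation was 1 of these 10 was included. The annotation held 15824 peaks, of which 6 had no gene, and covered 9086 genes. Of these peaks, 17 belonged to the members, and 6 of the 10 genes had at least 1. Among 21000 protein-coding genes of the RefSeq annotation, 37.2% had an assigned peak.

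The data came from chromatin immunoprecipitation followed by sequencing (ChIP-Seq), in which an antibody to NFIC pulls down the DNA that the factor occupies. The labels give 3 NFIC ChIP libraries and 1 library of input DNA, that is, sonicated chromatin without the antibody step. All 4 came from whole pancreas of mice that the series gives as aged 8 to 12 weeks, of strain "Mixed". The study describes the animals used for ChIP-Seq as wild-type and gives a lower upper age for them. No knockout or treated animal entered this experiment. The peaks were deposited as 1 merged list, each with 1 score, so no value had a replicate error, the depth per library was unknown, and no test was run. The score has no named scale and was used here only to rank peaks: it ran from 3.39 to 68.1 with a median of 6.57. Since whole tissue was used, the cell type in which a site was occupied cannot be told from the list, and the tissue label could not be checked against expression markers.

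mTOR works in a pair of complexes. mTORC1, which holds RPTOR, promotes protein synthesis and restrains autophagy when amino acids and growth signals are plentiful, and mTORC2, which holds RICTOR, phosphorylates AKT. RHEB in its GTP form activates mTORC1 at the lysosome, and the TSC1-TSC2 complex switches RHEB off. DDIT4, also called REDD1, is induced by hypoxia, glucocorticoids, DNA damage and endoplasmic reticulum stress and acts through TSC to lower mTORC1 activity. Sestrins are stress-inducible inhibitors of mTORC1 that bind the GATOR2 complex, and SESN1 and SESN2 sense leucine. Acinar cells, which make up most of the pancreas, sustain a very high rate of protein synthesis for digestive enzymes. NFIC belongs to the nuclear factor I (NFI) family, whose dimers recognise TGGC and GCCA with a spacer of 5 bases (TGGCNNNNNGCCA). A single arm of the site is TTGGCA.

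The sequences that carried an NFI full site, with at most 1 of its 8 fixed bases changed, are shown first. They are matches to the letters that NFI dimers recognise, and contact of NFIC with them was not tested. Each was read from the mm10 genome in the direction of the member's transcription. The 13-base site is in capitals with 10 bases of flank on each side. A change is written with the consensus base first, then the position counted from 1 at the 5′ end of the 13 bases, then the base found. Distances are from the peak centre to the TSS of the gene, negative upstream.
*Ddit4* at -20925 bp (chr10:59972745-59972757, minus strand, T1A): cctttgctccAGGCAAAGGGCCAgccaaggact
*Ddit4* at -16007 bp, upstream site (chr10:59967814-59967826, minus strand, A13T): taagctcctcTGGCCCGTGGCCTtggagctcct
*Ddit4* at -16007 bp, downstream site (chr10:59967792-59967804, minus strand, A13C): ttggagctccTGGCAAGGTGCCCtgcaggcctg
*Ddit4* at 7931 bp (chr10:59943868-59943880, minus strand, T1G): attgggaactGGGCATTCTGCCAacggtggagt
*Sesn1* at 47360 bp (chr10:41934858-41934870, plus strand, T1A): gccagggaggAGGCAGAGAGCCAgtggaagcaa
*Rheb* at 16867 bp (chr5:24825542-24825554, minus strand, A13C): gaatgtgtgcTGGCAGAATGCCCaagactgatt
*Mtor* at 14724 bp (chr4:148463294-148463306, plus strand, no change): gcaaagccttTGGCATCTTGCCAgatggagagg
*Rptor* at 21671 bp (chr11:119624647-119624659, plus strand, C12A): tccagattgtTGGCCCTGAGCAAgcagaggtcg
*Rptor* at 72114 bp, first site (chr11:119675053-119675065, plus strand, A13C): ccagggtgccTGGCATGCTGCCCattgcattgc
*Rptor* at 72114 bp, second site (chr11:119675079-119675091, plus strand, G3C): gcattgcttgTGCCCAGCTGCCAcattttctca

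These 10 sites lay in 8 of the 17 member peaks. Over the whole list, 51.8% of peaks held a full site in the 200 bp around their centre, so the members' share was close to that of the list. The outermost bases of the site, positions 1 and 13, carried 7 of the 9 changes. Only the *Mtor* site had no change, and 13.4% of all peaks held such an exact site. Its centre lay 6 bp upstream of the peak centre. The other 9 site centres lay 21 to 77 bp from theirs. Over the list, the nearest exact site lay within 20 bp of the peak centre in 45.3% of the 2127 peaks that held one. For the 6073 peaks whose best site had 1 change, the share was 43.2%.

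The single arm TTGGCA, read on both strands and allowed to overlap the full site, occurred in 7 member peaks, against 33.7% of all peaks. A full site or an arm was found in 11 of the 17, against 68.4% of the list. The other 6 peaks held neither: 3 of *Ddit4*, the promoter peak of *Sesn1* and both peaks of *Rictor*. Among the 4 member peaks within 1000 bp of a TSS, none held a full site and only that of *Ddit4* held an arm. Of the 4335 peaks of the list within that distance, 39.0% held a full site and 19.8% an arm. Of the 13 member peaks farther from a TSS, 8 held a full site and 6 an arm, beside 56.7% and 38.9% of the 11489 such peaks of the list.

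By class, 7 of the member peaks were intronic, 6 intergenic and 4 in the promoter class, and none was classed as exonic, UTR or transcription end. In the list, these 3 classes took 40.8%, 30.6% and 20.7% of peaks. By score, 9 of the 17 were in the highest quartile of the list, which began at 9.16 and held 25.5% of all peaks because of ties. The next quartiles held 3, 3 and 2. The median score of the member peaks was 9.36, but it was 6.575 for the 10 peaks that did not belong to *Ddit4*, level with the median of the list. *Ddit4* thus supplied 6 of the 9 member peaks in the highest quartile. The focus ratio, which HOMER gives as the share of tags placed as a sharp peak would place them, was 0.590 to 0.891 with a median of 0.694, beside 0.684 for the list.

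**Figure D1:**
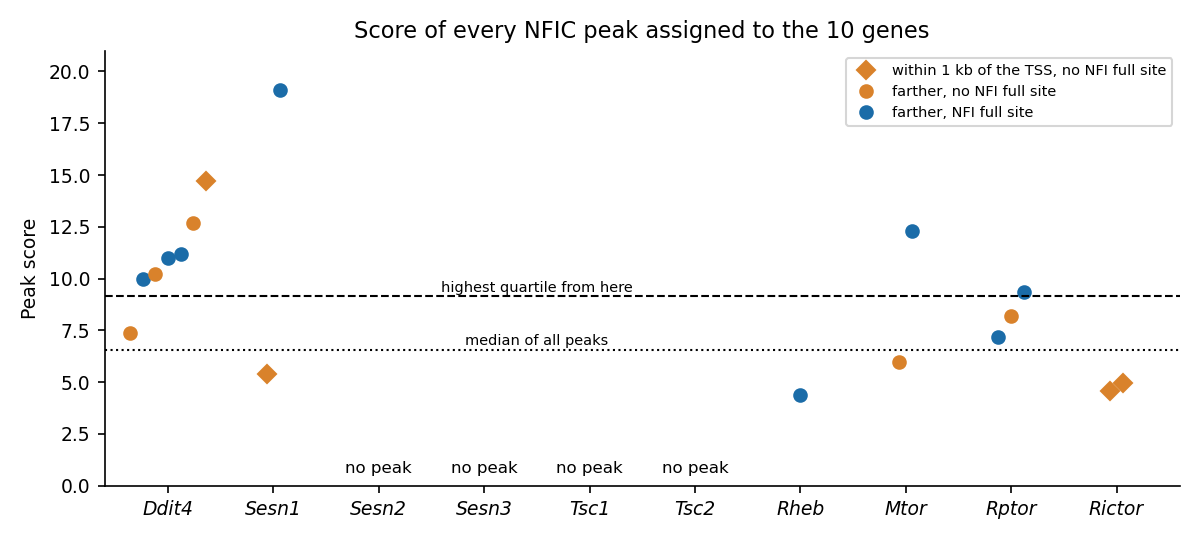
Score of each of the 17 NFIC peaks assigned to the 10 genes, 1 point per peak of the merged list, with the gene on the horizontal axis. Diamonds are peaks within 1 kb of a TSS, blue marks an NFI full site, and the lines give the median of all peaks (6.57) and the start of the highest quartile (9.16); 6 of the 7 *Ddit4* peaks lie above the upper line, and *Sesn2*, *Sesn3*, *Tsc1* and *Tsc2* have none.

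*Ddit4* had 7 assigned peaks, 41.2% of those of all 10 genes. Only 0.552% of protein-coding genes had 7 or more, and 69 genes of the list had more. From its ChIP-Seq data, the study already names *Ddit4* as an example of an endoplasmic reticulum stress gene that NFIC binds. The gene is short, 2.096 kb on the minus strand (chr10:59949675-59951770), and none of its peaks lay inside it. Only 2 of the 7 lay within 5 kb of the gene. The assignment of the others, farther off, rests on the nearest TSS only. At least 2 peaks were assigned to 5 of the 10 members, against 14.4% of protein-coding genes. The *Ddit4* peaks spanned 56.4 kb, which was most of the 61.61 kb of chromosome that lie nearer to the *Ddit4* TSS than to any other curated TSS. This came to 11.4 peaks per 100 kb, the highest of the 10 genes. *Mtor* came to 7.18, *Rptor* to 2.1, *Rictor* to 1.82, *Sesn1* to 1.4 and *Rheb* to 1.38. The chromosomes as a whole, with sequence far from any TSS included, came to 0.581. *Sesn2*, *Sesn3*, *Tsc1* and *Tsc2* came to 0.0. Even in the longest of the 10 stretches, 142.9 kb at *Rptor*, 1 peak exceeds the figure for the chromosomes. That members with a peak lie above it was thus fixed in advance.

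The strongest *Ddit4* peak by score was at the promoter, centred at -284 bp from the TSS (chr10:59951968-59952140). Its score of 14.7 was above 93.57% of all peaks and above 94.0% of the peaks within 1000 bp of a TSS. The 173 bases of this peak are printed because it was the only member promoter peak in the upper 2 quartiles of score. The capitals mark the single NFI arm, 52 bp upstream of the peak centre.
*Ddit4* promoter, minus strand: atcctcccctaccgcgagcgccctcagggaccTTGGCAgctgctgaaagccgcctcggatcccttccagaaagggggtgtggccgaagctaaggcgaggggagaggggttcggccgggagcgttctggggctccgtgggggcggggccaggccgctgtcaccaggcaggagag
The window was 67.0% GC. It held 1 copy of CAGCTG, an E-box that PTF1A and MIST1 can bind, and 1 copy of GGGCGG, the GC box of SP factors. The E-box shares letters with the NFI arm, which ends in its first bases. Of the promoter peaks in the list, 13.1% held CAGCTG, 20.6% TTGGCA and 58.4% GGGCGG.

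A pair of *Ddit4* peaks lay upstream in intergenic sequence, with NFI sites in both. The peak at -20925 bp scored 9.96 and had a focus ratio of 0.818, above 98.05% of the list. The peak at -16007 bp scored 11 with a focus ratio of 0.716, and it held the 2 sites shown above for this peak, 22 bp apart. These 2 scores were in the highest quartile, though below that of the promoter.

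The other 4 *Ddit4* peaks lay past the gene's 3′ end, by 4.81, 5.84, 28.4 and 33.3 kb. The nearest of them, at 6902 bp from the TSS, scored 10.2 and had a focus ratio of 0.891, above 99.83% of all peaks. It lay in a B1 repeat, a short interspersed element, and its whole window was repeat-masked, with a GC content of 30.0%, whereas 0 of the other 6 *Ddit4* windows had a masked base. The part of the repeat in this score was not tested.

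Only 1029 bp farther lay the peak at 7931 bp (chr10:59943753-59943925), with a score of 11.2. It is printed because its window held the most different motifs among the members.
*Ddit4* at 7931 bp, minus strand: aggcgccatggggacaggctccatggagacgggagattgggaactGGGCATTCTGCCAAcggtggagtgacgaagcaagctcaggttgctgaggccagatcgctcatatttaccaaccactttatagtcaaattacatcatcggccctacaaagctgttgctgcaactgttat
The capitals mark the NFI full site and, overlapping it, an arm on the opposite strand. The 200 bp also held AGATAA, which factors of the GATA family bind (in 8.76% of all peaks), CCAAT, bound by NFY (in 24.6%), and TGATGNAA, the composite site of ATF4 and C/EBP proteins, in 1.80%. ATF4 is the transcription factor of the integrated stress response. A match shows only that these letters are present.

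The last pair of *Ddit4* peaks had neither a full NFI site nor an arm. The peak at 30515 bp scored 7.37, the lowest of the 7 and the only one outside the highest quartile. The peak at 35442 bp scored 12.7, the second highest of the gene, and its window held CAGCTG and AGATAA. Around *Ddit4*, the 3 peaks with a full site scored 9.96 to 11.2 and the 4 without 7.37 to 14.7. Over the list, a full site was held by 51.8% of all peaks and by 68.0% of those in the highest quartile of score. The next peaks beyond this stretch were assigned to *Dnajb12* on the downstream side, at 43.7 kb from the *Ddit4* TSS, and to *Ascc1* on the upstream side, at -39674 bp.

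**Figure D2:**
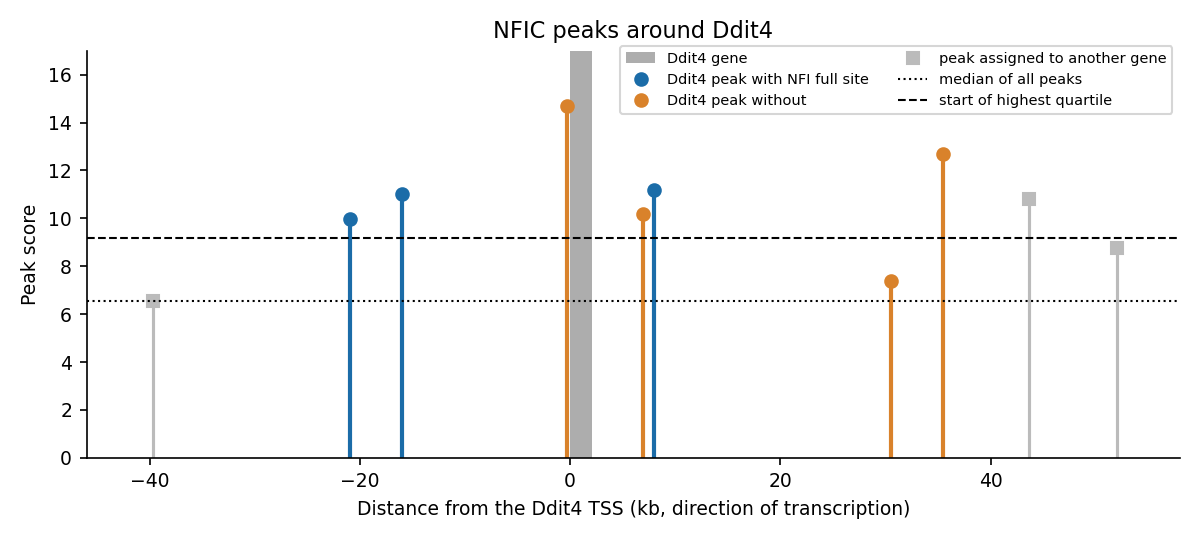
NFIC peaks around *Ddit4*, by distance of the peak centre from the TSS in kb in the direction of transcription (horizontal) and by score (vertical). The grey band is the 2.096 kb gene, blue stems are assigned peaks with an NFI full site, orange stems assigned peaks without one, and grey squares peaks assigned to neighbouring genes; 7 assigned peaks run from -20925 to 35442 bp and the highest, 14.7, stands at the promoter.

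Among the sestrins, NFIC peaks were assigned to *Sesn1* alone. *Sesn1* (chr10:41810574-41908436, plus strand) has 2 TSSs in RefSeq. The promoter peak (chr10:41887268-41887440) lay at -85 bp from the inner TSS, within intron 1 of 9 of the long transcript, and scored 5.38, above 29.91% of all peaks and 32.1% of those near a TSS. Its window was 74.0% GC, with 4 copies of GGGCGG and no NFI site or arm. No peak was assigned near the outer TSS.

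The other *Sesn1* peak (chr10:41934713-41934885) had the highest score of all 17, 19.1, above 97.77% of the list. It lay 47360 bp from the inner TSS and 26.4 kb past the end of *Sesn1*, inside intron 12 of 17 of *Armc2*. Its assignment to *Sesn1* rests on distance only: the *Sesn1* TSS is the nearest. It is printed because it scored highest, with the NFI site in capitals.
*Sesn1* at 47360 bp, plus strand: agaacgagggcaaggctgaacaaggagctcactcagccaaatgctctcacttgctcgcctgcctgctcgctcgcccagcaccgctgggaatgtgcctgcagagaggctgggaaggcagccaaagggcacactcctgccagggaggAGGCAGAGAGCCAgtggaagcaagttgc
Near *Sesn2* (chr4:132492804-132510456) and *Sesn3* (chr9:14276301-14326134) no peak of the list lay inside the gene or within 50 kb. The nearest peak to the *Sesn2* TSS was 87.98 kb away and that to the *Sesn3* TSS 104.8 kb away. The stretches nearer to these TSSs than to any other measured 35.75 and 100.6 kb.

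Neither TSC gene had an assigned peak, but they differed in what lay near them. At *Tsc1* (chr2:28640993-28691172) the nearest peak was at -30005 bp from the TSS, belonged to *Gfi1b*, and scored 10.2. At *Tsc2* (chr17:24595816-24632676, minus strand) a peak assigned to *Nthl1*, a DNA glycosylase gene of base excision repair, lay at -569 bp from the *Tsc2* TSS (chr17:24633110-24633282). *Tsc2* and *Nthl1* are transcribed away from each other from TSSs 55 bp apart. The peak lay 514 bp downstream of the *Nthl1* TSS, in its intron 1 of 5, so the nearest-TSS rule gave it to *Nthl1*. The class column of the same row named it a promoter peak of a *Tsc2* transcript. It scored 7.17, above 56.44% of the list, with a focus ratio of 0.639. Its sequence is printed because it carried an NFI full site (A13T, 26 bp from the centre) that overlaps an arm, both in capitals.
*Nthl1* and *Tsc2* shared promoter region, *Tsc2* strand (minus): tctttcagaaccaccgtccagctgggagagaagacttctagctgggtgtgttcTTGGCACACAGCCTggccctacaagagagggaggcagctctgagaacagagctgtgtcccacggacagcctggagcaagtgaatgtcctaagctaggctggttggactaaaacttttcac
With the strict nearest-gene rule *Tsc2* counted as a gene without a peak, and with every TSS in reach it counted as 1 with a promoter peak.

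*Rheb* (chr5:24802823-24842361, minus strand), the GTPase that TSC inactivates, had 1 peak (chr5:24825408-24825580). It lay 16867 bp downstream of the TSS in intron 1 of 7. Its score of 4.38 was the lowest of the 17 and above only 12.47% of the list, with a full site 54 bp from its centre. A further peak, 4.03 kb past the end of the gene, was assigned to *Crygn* and scored 3.78.

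*Mtor* (chr4:148448582-148557685, plus strand), the kinase itself, had 2 peaks, both intronic. That in intron 5 of 57 at 7283 bp scored 5.98 and held a single arm and a TGANTCA match, the AP-1 letters found in 5.26% of all peaks. That in intron 9 at 14724 bp (chr4:148463220-148463392) scored 12.3, above 88.38% of the list. It is printed because it held the only exact NFI site among the 17 assigned peaks, in capitals together with the T that completes the arm.
*Mtor* at 14724 bp, plus strand: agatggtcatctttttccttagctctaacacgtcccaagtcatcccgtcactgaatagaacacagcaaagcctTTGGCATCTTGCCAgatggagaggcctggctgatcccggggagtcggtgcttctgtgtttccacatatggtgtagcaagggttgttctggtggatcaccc
A further peak inside *Mtor*, in intron 28, was assigned to *Angptl7*, an angiopoietin-like gene whose TSS was nearer. Its class was exonic, in exon 5 of 5 of an *Angptl7* transcript, and it scored 7.17. It also held an NFI full site without a change, so 2 peaks inside *Mtor* carried an exact site. No peak lay within 1000 bp of the *Mtor* TSS.

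*Rptor* (chr11:119602905-119899591, plus strand), which encodes the substrate-binding partner of mTOR in mTORC1, is the longest member at 296.7 kb and had 3 peaks, all intronic. The peak in intron 1 of 33 scored 7.17 at 21671 bp. In intron 3, a pair of peaks lay 713 bp apart at 72114 and 72827 bp with scores of 9.36 and 8.17, the former with 2 full sites and the latter with an arm only. A further peak in intron 5, assigned to the antisense gene *Rptoros*, scored 5.58. As at *Mtor*, no peak lay within 1000 bp of the TSS.

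*Rictor* (chr15:6708349-6800401, plus strand), the partner of mTOR in mTORC2, showed the opposite layout. Both of its peaks were at the start of the gene, at -452 and 9 bp, 461 bp apart, and none lay farther inside. They scored 4.58 and 4.98, above 16.41% and 23.63% of the list, and neither held an NFI site or arm. The window at 9 bp was 72.0% GC with 3 copies of GGGCGG, and the one at -452 bp was 46.5% GC with none. With peaks of 1 gene within 500 bp merged, these 2 count as 1.

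**Figure D3:**
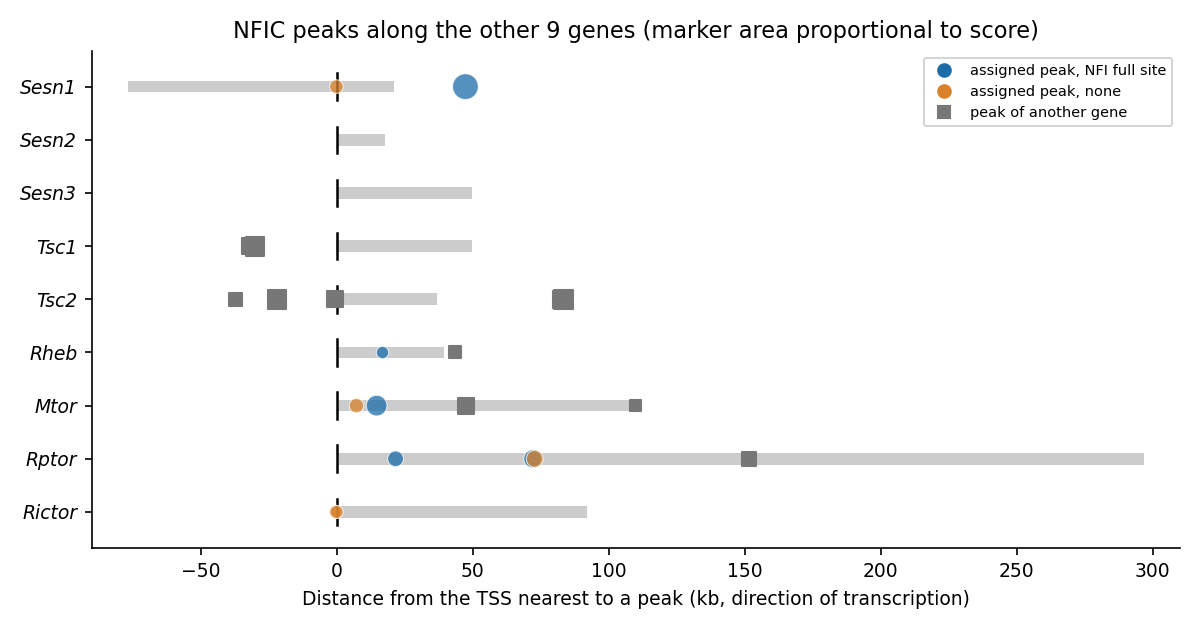
Positions of NFIC peaks along the other 9 genes, in kb from the TSS nearest to a peak, in the direction of transcription. Grey bars are the genes, circles assigned peaks (blue with an NFI full site, orange without), squares peaks assigned to other genes, and marker area is proportional to score; *Rictor* carries its peaks at the start, *Mtor*, *Rptor* and *Rheb* inside introns, and *Sesn2* and *Sesn3* have none in view.

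Across the 10 genes, 3 had a peak in the promoter window that runs from -1000 bp to the TSS, namely *Ddit4*, *Sesn1* and *Rictor*, against 10.7% of protein-coding genes. Within 1000 bp on either side of the TSS the same 3 were counted, against 18.1%. Whatever gene a peak was assigned to, 7 of the 10 had a peak inside the gene or within 5 kb, the 6 genes above and *Tsc2*, against 39.5% of protein-coding genes. Of the 3 promoters, *Ddit4* had a score in the highest quartile and the others scores below the median of the list.

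The other genes of the pathway were read in the same way to place these 10. Of 73 further genes, 44 (60.3%) had an assigned peak, 12 (16.4%) a promoter peak and 23 (31.5%) a peak within 1000 bp, beside the same backgrounds of 37.2%, 10.7% and 18.1%. The part of gene length or expression in these shares was not tested. The 3 genes of GATOR1, which turns off the RAG GTPases, and the 3 matched genes of KICSTOR, which anchors it at the lysosome, had no peak. Of GATOR2, the sestrins' partner, 3 of 5 genes had 1 peak each. Of 9 RAG and Ragulator genes, 3 had a peak, and of these *Lamtor2*, a Ragulator subunit, had one at -75 bp with a score of 13.1. All 7 genes of the PI3K-AKT input had a peak, and *Pik3r1*, the regulatory subunit of PI3K, had 11, the most in the list of pathway genes, none of them within 1000 bp of its TSS. *Akt1*, whose kinase phosphorylates TSC2, had its single peak at -161 bp with a score of 14.3 and a full site. Of the AMPK-LKB1 input, 7 of 9 genes had a peak, with 5 at *Prkag2*, a regulatory subunit of AMPK, whose strongest promoter peak scored 8.96 at -507 bp.

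Downstream of mTORC1, 7 of 11 translation genes had a peak, against 37.2% of protein-coding genes. They had 26 peaks in all, of which 22 fell on 3 genes. *Larp1*, a repressor of TOP mRNAs, had 8, *Eef2k*, the kinase of elongation factor 2, had 7, and *Pdcd4*, an inhibitor of eIF4A, had 7. Each of the 3 also had a promoter peak, at -45 bp (score 7.37), -110 bp (9.36) and -244 bp (9.96). *Bmt2*, the SAMTOR sensor of S-adenosylmethionine, had the highest promoter score of the pathway, 20.7 at -207 bp, with a full site. *Sgk1*, a target of mTORC2, had a promoter peak at -689 bp with a score of 9.56. Of the 12 pathway genes with a promoter peak, only *Bmt2* had a higher promoter score than *Ddit4*. In the pathway, 4 genes had 7 peaks or more, as *Ddit4* did, against 0.552% of protein-coding genes.

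**Figure D4:**
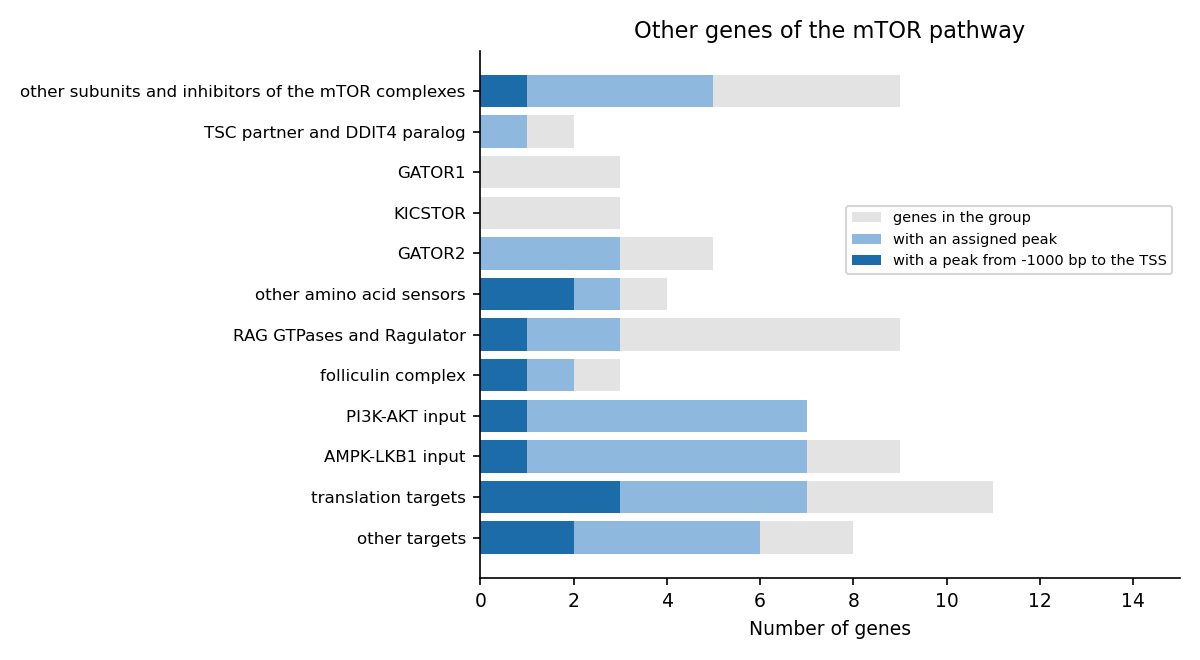
Number of further mTOR pathway genes by role: grey bars are all genes of the group, light blue those with an assigned NFIC peak and dark blue those with a peak from -1000 bp to the TSS. All 7 PI3K-AKT genes have a peak, and none of the 3 GATOR1 or 3 KICSTOR genes does. Of all protein-coding genes, 37.2% have one, and the difference between these small groups was not tested.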

How the data were processed

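The authors deposited 1 merged list of NFIC peaks, annotated with HOMER on mm10, and the 3 ChIP and 1 input libraries have no columns of their own (0 columns with values per sample). The submitters' processing notes name BWA, Picard and MACS2 without versions. The study's methods name the RUbioSeq+ pipeline and HOMER for calling peaks. The sources thus differ on the program that called the peaks, and the list itself carries the focus ratio that HOMER gives. Thresholds are not given in the sources used here. The peak score is the authors' deposited score, on no named scale, and the focus ratio is a deposited fraction of tags. All 15824 peaks were 173 bp wide, and 6 had no gene.

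Peaks were read in Python 3.11 with pandas 2.3.3 and numpy 2.4.6, and genes matched by Entrez ID to RefSeq on GRCm38. The background was 21000 protein-coding genes with a curated transcript. For all 17 member peaks, the nearest gene and distance recomputed from RefSeq equalled the deposited ones. Score percentiles are the share of peaks with a lower score, and quartile 1 is the highest. Motifs were searched on both strands in 200 bp centred on each peak. Of 74 pathway genes, 73 matched RefSeq. Pathway genes were named if among the 8 highest-scoring promoter peaks or the 5 with most peaks, and neighbours if a peak lay inside a member or within 1000 bp of its TSS, or if a member's peak lay inside them. *Gfi1b*, *Crygn*, *Dnajb12* and *Ascc1* were named after their values were seen. Site search and nearest-TSS code were tested on simulated data. Alternatives varied the score cut, merging, assignment, windows and mismatches. The members and lists were chosen with earlier results of these data known.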

Additional observations from a re-analysis of the deposited data

How the results depend on the processing

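With only peaks of the highest quartile of score, 9 peaks remained at members, 1 member (*Ddit4*) had a promoter peak (2.77% of protein-coding genes), 1 a peak within 1000 bp of the TSS (4.33%) and 3 a peak inside the gene or within 5 kb (13.3%). With the upper 2 quartiles these last 3 counts were 1 (5.57%), 1 (8.81%) and 4 (23.4%). Of the other pathway genes, 27 had a peak in the upper 2 quartiles (21.9%) and 19 in the highest (12.5%), and 6 had a promoter peak in the highest quartile (2.77%). With a promoter window from -1000 to 1000 bp, 23 of them had a peak (18.1%). Member peaks with an NFI full site numbered 1 without mismatches (13.4% of all peaks) and 15 with at most 2 (90.9%). These counts fall or rise by the construction of the setting. Counting every TSS in reach added *Tsc2* to the members with a promoter peak, 4 in all, and raised the share of protein-coding genes from 10.7% to 13.1%. With the nearest TSS taken from RefSeq, 41 of the other pathway genes had a peak (36.8% of protein-coding genes). *Castor2*, *Prkab1* and *Tti2* were then no longer among them. No replicate could be left out, and no paired analysis was possible because the libraries were merged before deposit. Scores cannot be turned into read depth, so weak binding at the 4 genes without an assigned peak was not detectable from this list.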

Other observations

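*Lpin1*, a phosphatidate phosphatase gene whose product is held back by mTORC1, was chosen after its values were seen. It had the highest score of the 99 peaks at the other pathway genes, 26.1 at -8148 bp, and both of its 2 peaks held an NFI full site. *Sec13*, a GATOR2 subunit also named after its values were seen, had its single peak at -21152 bp with a score of 16.5.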
